A study of Mus musculus with 2 samples.

Results

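T cells were a small population among the CD45+ cells of the mouse brain. They were taken as cells with at least 500 UMIs (unique molecular identifiers, counted transcript molecules) on genes, of which at least 2 lay on Cd3d, Cd3e and Cd3g in sum, at most 1 on the B cell genes Cd79a and Cd79b, and at most 2 on the macrophage genes Mrc1 and Pf4. By this rule 202 of 19864 cells (1.02%) were T cells. The remaining 19662 cells, mostly microglia by their transcripts, are called the other cells. The cells came from 4 control mice (Arpc4 fl/fl) and 4 Arpc4dCx3cr1 mice (Tg(Cx3cr1-Cre) Arpc4 fl/fl), all 12 weeks old, so that every mouse carried the floxed Arpc4 alleles and the genotypes differed by the Cre transgene. Cre was driven by a Cx3cr1 transgene, which is active in microglia and in some other leukocytes. Viable CD45+ cells were sorted, tagged per mouse and sequenced from their 3′ ends as 1 pooled library. The study used 1 female Arpc4dCx3cr1 mouse among male ones, and Xist reached 1287 CPM (UMIs of a gene scaled to a total of 1000000) in the other cells of Arpc4dCx3cr1 mouse 1, against 3.70 to 13 CPM in those of the 7 remaining mice.

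A T cell recognizes antigen through its receptor, whose alpha and beta or gamma and delta chains carry no signaling part of their own and rely on the CD3 chains for it. Cells with the CD8 coreceptor read peptides on MHC class I and kill infected cells, while cells with CD4 read peptides on MHC class II and direct other immune cells. The healthy brain holds few T cells, found mainly in the meninges, the choroid plexus and around vessels, with sparse cells in the tissue. CXCR6, the receptor for the membrane-bound chemokine CXCL16, is a feature of T cells that settle in tissues. Microglia and other macrophages can present antigen and chemokines to such cells.

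The cells at the edge of the rule were few. The members had a median of 12 CD3 UMIs, and 184 of the 202 had 5 or more. Inside the edge lay 6 members with 2 CD3 UMIs and 3 with 3, and just outside it lay 87 cells with 1. A further 11 cells with at least 2 CD3 UMIs were left out, 6 for Cd79a and Cd79b and 5 for Mrc1 and Pf4. The CD3 genes of the rule are neighbors on chromosome 9 (GRCm38), with Cd3g at 44969572 to 44980431, Cd3d at 44981786 to 44987339 and Cd3e at 44998740 to 45009627. No barcode was shared between mice.

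Many T cells also carried microglia transcripts, and the main results are therefore given with and without these cells. The 13 microglia markers (among them P2ry12, C1qa and Tmem119) took at most 1% of the UMIs in 122 T cells, with a median of 0.184%, and more than 1% in 80, with a median of 2.41%. Only 6 cells lay between 0.5 and 1% and 6 between 1 and 1.5%, while 84 lay under 0.25% and 36 between 2 and 3%. The 80 cells had a median of 8046.5 UMIs, those with at most 1% had 3109, and the other cells had 3903.5. In empty droplets the markers took 4.83% of the UMIs. C1qa stood at 452 CPM in the 122 cells, 4831 CPM in the 80 cells and 7835 CPM in the other cells, and Tmem119 at 32.3, 280 and 440 CPM. The 80 cells made up 29.5 to 61.5% of the T cells of a mouse, and the genotypes differed in this share by less than their spread (39.2% ± 13 in Arpc4dCx3cr1 and 44.6% ± 11.6 in control mice, SD, n = 4, p = 0.457, exact permutation test over mice, two-sided). Whether they were droplets with a T cell and a microglial cell was not tested.

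**Figure D1:**
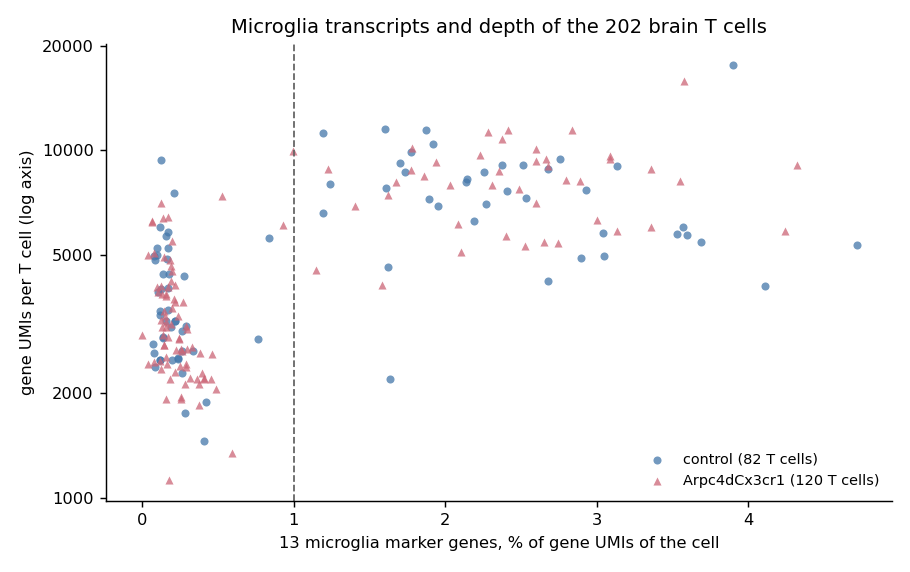
Each point is 1 of the 202 T cells, with the share of its UMIs on 13 microglia markers on the x axis and its gene UMIs on the log y axis, by genotype. The dashed line marks 1%, which separates 122 cells with a median of 3109 UMIs from 80 cells with a median of 8046.5.

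T cells were also often left without a mouse. In the unfiltered table of the pool, 397 barcodes met the rule, and 195 of them (49.1%, exact 95% binomial interval 44.1 to 54.2, which covers counting error only) had been given to no mouse, against 25.8% of the other barcodes. The most frequent tag had a median of 463 UMIs in the assigned T cells with at most 1% microglia UMIs, 127 in the unassigned ones and 1085 in the assigned other cells. The shares below therefore describe assigned cells.

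Genes of the receptor that the rule did not use were high in the cells as well. Trbc1 or Trbc2, which encode the constant parts of the beta chain and are so alike that reads may be split between them, had a UMI in 194 of the 202 cells (96.0%). Trac, the alpha chain, had one in 134 cells (66.3%) and in 0.117% of the other cells. Without Cd3d, Cd3e and Cd3g, which chose the cells, 6 of the 8 receptor genes left in the list were higher in T cells than in the other cells of every mouse, and the 8 summed to 1432 to 2609 CPM per mouse in T cells and to 8.69 CPM in the other cells. Trbc2 (chromosome 6, 41546730 to 41548352) stood at 1534 CPM in T cells with at most 1% microglia UMIs and at 2.63 CPM in the other cells.

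The downstream signaling genes behaved likewise, with 14 of 16 higher in T cells in every mouse. Skap1, an adaptor of integrin activation, stood at 921 CPM in T cells with at most 1% microglia UMIs and at 4.14 CPM in the other cells. Lat, the scaffold that the receptor's kinases phosphorylate, stood at 357 and 1.17 CPM, Lck, the kinase bound to the coreceptors, at 297 and 1.37 CPM, and Themis, a signaling protein of developing T cells, at 343 and 0.375 CPM. The other two were Lcp2, an adaptor that myeloid cells share, at 111 and 166 CPM, and Cd28, a costimulatory receptor, which had no UMI in the T cells of at least 1 mouse. As the rule chose cells by their transcripts, these contrasts describe the cells and carry no test. As background, 693 of the 3481 genes with at least 50 CPM in T cells (19.9%) were higher in T cells than in the other cells in all 8 mice.

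Variable receptor segments were seen in few cells, as the reads came from 3′ ends. At least 1 UMI on any of 176 segments was found in 78 T cells, covering 33 segments. Alpha segments were seen in 19 cells and beta segments in 18 cells, and the most frequent beta segments, Trbv12-2 and Trbv13-2, in 4 each. The gamma segment Trgv2 alone was seen in 39 T cells and in 3 other cells, and Trdv4 in 12 T cells and 17 other cells. Clonal relations cannot be read from these counts.

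The T cells held cells with CD8 transcripts, cells with no coreceptor transcript and a few with CD4. Cd8a or Cd8b1 without Cd4 was found in 93 cells, Cd4 without either CD8 gene in 16, both in 1 and neither in 92. A missing coreceptor UMI is no proof of absence at a median of 4313.5 UMIs in the cells with neither. At least 2 UMIs of Trdc, the constant part of the delta chain, marked 20 cells, of which 18 had no coreceptor UMI. In the other cells Cd8a had a UMI in 0.0763%, Cd8b1 in 0.112%, Cd4 in 0.351% and Trdc in 0.132%.

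Several transcripts of cytotoxic cells were higher in CD8 cells than in cells without a coreceptor. In cells with at most 1% microglia UMIs (57 with Cd8 and 55 without a coreceptor), Ccl5, a chemokine stored by effector cells, stood at 8966 CPM with Cd8 and at 2428 CPM without. Nkg7, a protein of cytotoxic granules, stood at 2294 and 803 CPM. Gzmk, a granzyme of memory CD8 cells, had a UMI in 48 of the 93 CD8 cells and in 1 of the 92 cells without a coreceptor, and stood at 362 and 0 CPM. Themis (539 against 81.3 CPM) and the integrin Itga4 (434 against 61.0 CPM) were also higher with Cd8. Ctsw (381.5 against 386.1 CPM) and Xcl1 (443.5 against 462.3 CPM) were not higher with Cd8. These are sums over the cells of all mice, without a test.

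Cells without a coreceptor were a mixed group. Il7r, the receptor for the survival cytokine IL-7, stood at 1194 CPM in those with at most 1% microglia UMIs and at 300 CPM in CD8 cells (sums over mice). Trdc stood at 726 CPM, and Cd163l1 and Il23r, both known from gamma delta T cells that make IL-17, at 295 and 173 CPM, against 0, 9.54 and 62.0 CPM in CD8 cells. Of the 20 Trdc cells, 13 had a UMI of Cd163l1 and 12 of Il23r, while the cytokine genes Il17a and Il17f had a UMI in 1 and in no T cell. Ncr1 and Klrb1c, markers of natural killer (NK) cells, reached 2 UMIs in sum in 17 T cells, 13 of them without a coreceptor. Klra4, Klra8 and Klra9, members of a family whose near-identical copies can share reads, were seen in 8 T cells or fewer, none of them a CD8 cell.

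The 16 CD4 cells showed genes of regulatory T cells in some members. Foxp3, the transcription factor of that lineage, had a UMI in 3 of the 16 cells, Ctla4 in 8 and Tnfrsf4 in 4. In the 9 CD4 cells with at most 1% microglia UMIs, Ikzf2 and Tnfrsf18 each stood at 941 CPM and Tnfrsf4 at 706 CPM, against 143, 28.6 and 0 CPM in CD8 cells. Only Arpc4dCx3cr1 mouse 1 held 5 CD4 cells, so CD8 and CD4 cells could not be compared across mice with the planned fit.

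**Figure D2:**
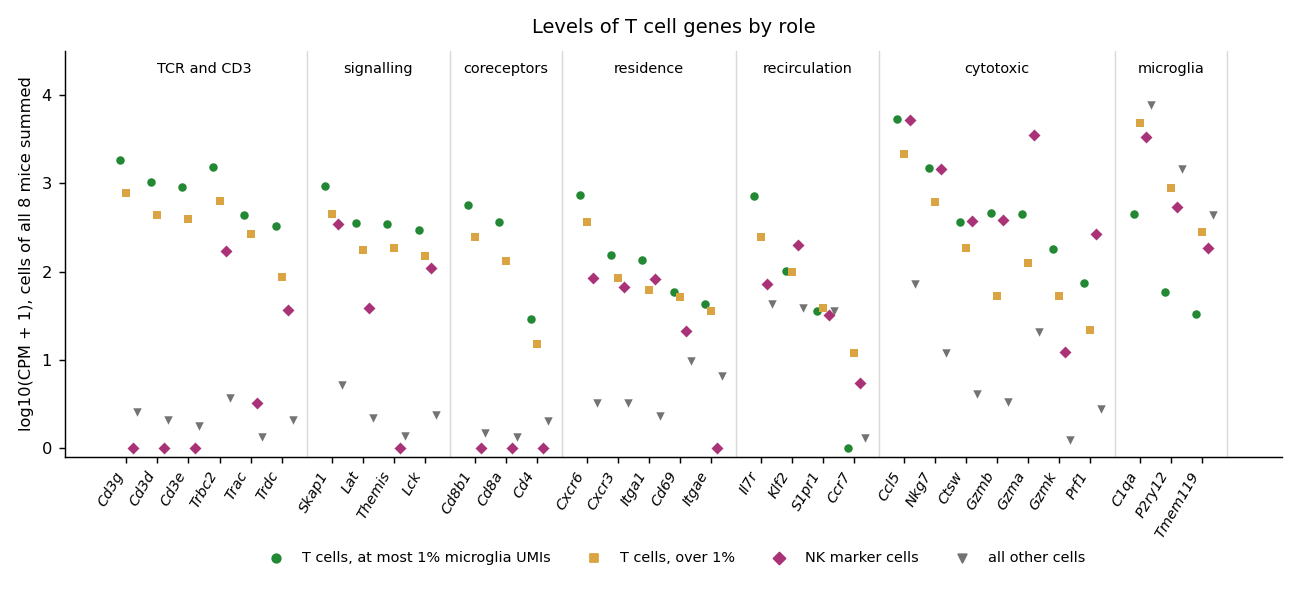
Levels of T cell genes by role as log10(CPM + 1) on the y axis, each point a sum over the cells of all 8 mice, for T cells with at most 1% and over 1% microglia UMIs, NK marker cells and all other cells. Receptor, signaling and coreceptor genes lie near the bottom of the scale in the other cells. NK marker cells share the cytotoxic genes and, at lower levels, Skap1, Trbc2 and Lck. The microglia genes at the right are lowest in T cells with at most 1% microglia UMIs.

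Cxcr6, the marker of tissue T cells, was found in most members, and Ccr7 and S1pr1 in few. Cxcr6 (chromosome 9, 123806475 to 123811760) had a UMI in 157 of the 202 T cells (77.7%) and in 0.565% of the other cells, with 78 of 93 CD8 cells, 69 of 92 cells without a coreceptor, 18 of 20 Trdc cells and 9 of 16 CD4 cells among them. Its level in T cells was 562, 383, 717 and 696 CPM in control mice and 399, 417, 555 and 454 CPM in Arpc4dCx3cr1 mice, so that the genotypes overlapped. Itga1, a collagen-binding integrin, stood at 134 CPM in T cells with at most 1% microglia UMIs, Runx3, a factor of CD8 and resident cells, at 244 CPM, and Rgs1, a brake on chemokine receptors, at 117 CPM. Cd69 and Itgae, the surface markers most used for residence, were at 57.6 and 41.5 CPM with UMIs in 37 and 25 of the 202 cells. Ccr7 or S1pr1, which lead cells through lymph nodes, had a UMI in 31 T cells (15.3%), and 15 of these had a Cxcr6 UMI as well. Ccr7 had none in the 122 cells with at most 1% microglia UMIs, which allows a share of cells with a UMI of up to 2.46% and sets no limit on the cells that express it. Other genes of the recirculation and naive list were higher, and its 11 genes summed to 1249 CPM in these cells, 726 CPM of it from Il7r, against 334 CPM in the other cells.

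NK marker cells shared the cytotoxic part of this profile and some transcripts of receptor and signaling genes. They were 76 cells with at least 2 UMIs of Ncr1 and Klrb1c and none of the CD3 genes, and 40 of them held more than 1% microglia UMIs. Skap1 stood at 345 CPM in them, Trbc1 at 177 CPM, Trbc2 at 171 CPM and Lck at 109 CPM. Lat, Trac and Themis were lower, at 37.6, 2.21 and 0 CPM. Ccl5 stood at 5268 CPM in them against 5434 CPM in T cells with at most 1% microglia UMIs, Nkg7 at 1442 against 1477 CPM, and Gzmb, a granzyme that starts apoptosis, at 388 against 463 CPM. Gzma was at 3552 CPM in NK marker cells and at 452 CPM in T cells, where 13 of 202 cells held all of its UMIs. Cxcr6 (84.1 against 733 CPM), Il7r (70.9 against 726 CPM) and the interferon-inducible Ly6a (26.6 against 721 CPM) were lower in NK marker cells. These T cell levels are from cells with at most 1% microglia UMIs, while the NK marker cells were not limited in this way. In all 202 T cells Ccl5 stood at 3481 CPM, Nkg7 at 963 CPM, Cxcr6 at 511 CPM and Ly6a at 534 CPM. Both groups were chosen by their transcripts, so these values carry no test.

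Markers of other leukocytes differed by list. The 6 granulocyte genes summed to 122 to 300 CPM in the T cells of a mouse against 4914 CPM in the other cells, the 5 genes of CNS-associated macrophages outside the rule to 0 to 213 CPM against 211 CPM, with Lyve1 and Cd163 at 0, and the 4 red blood cell genes to 0 to 42.6 CPM. With Mrc1 and Pf4 included, the 7 macrophage genes summed to 0 to 30.4 CPM in control and 13.9 to 218 CPM in Arpc4dCx3cr1 mice, with overlap. Their sum was 13.8 CPM in T cells with at most 1% microglia UMIs and 153 CPM in those over 1%. None of these 7 genes passed the filter for the test between genotypes in T cells. The 6 monocyte genes summed to 723 to 1314 CPM in control and 445 to 712 CPM in Arpc4dCx3cr1 mice, without overlap, against 1101 CPM in the other cells. In T cells with at most 1% microglia UMIs the sums overlapped, at 390 to 1873 and 291 to 660 CPM. Of the 4 monocyte genes tested between genotypes in T cells, 0 were called by edgeR. Ly6c2 and Ccr2, both of which T cells can express, were at 196 and 122 CPM in T cells with at most 1% microglia UMIs. The 7 dendritic cell genes summed to 1387 and 1232 CPM in control mice 2 and 3, to 40.1 to 555 CPM in the remaining mice and to 1362 CPM in the other cells. Most of this came from Cd74 and H2-Ab1, while Flt3, Xcr1, Clec9a and Cd209a were at 0, and the sum was 99.1 CPM in T cells with at most 1% microglia UMIs. The part of the monocyte and dendritic cell transcripts in the comparison of genotypes was not tested. The 9 NK genes summed to 1124 to 3047 CPM in control and 2405 to 4442 CPM in Arpc4dCx3cr1 mice, most of it from Tyrobp and Fcer1g, which microglia share. A few transcripts came from very few cells. Of 1250 Igkc UMIs in T cells, 1236 came from 1 cell of Arpc4dCx3cr1 mouse 3, and Gzmc was confined to 6 T cells. Mki67 or Top2a, genes of dividing cells, had a UMI in 13 T cells (6.44%). The 11 immediate early genes, which rise within minutes of stimulation or of tissue dissociation, summed to 380 to 886 CPM per mouse in T cells against 663 CPM in the other cells. Of these, 8 were seen in T cells, with Nfkbia and Junb the highest, and Fos, Fosb and Nr4a1 had no UMI in any. A count of 0 in 202 cells allows a share of cells with a UMI of up to 1.49% for each and sets no limit on the cells that express it.

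The comparison of genotypes asked whether T cells, which are not the cells the deletion was aimed at, differed between brains with control and with Arpc4-deficient microglia. The T cells of a mouse summed to 49819 to 203209 UMIs, of which those with at most 1% microglia UMIs held 17136 to 96264. Their share differed by less than the spread between mice. Control mice 1 to 4 held 10, 26, 29 and 17 T cells, or 0.796, 0.918, 1.07 and 0.642% of their cells. Arpc4dCx3cr1 mice 1 to 4 held 44, 12, 41 and 23, or 1.67, 0.472, 1.52 and 0.905%. The highest and the lowest share were both from Arpc4dCx3cr1 mice. The means were 1.14% ± 0.556 and 0.857% ± 0.183 (SD, n = 4, p = 0.4, exact permutation test, two-sided, whose smallest possible p here is 0.0286). Without T cells over 1% microglia UMIs the difference was 0.272 percentage points (p = 0.314, exact permutation test), and it was 0.107 without Arpc4dCx3cr1 mouse 1, 0.507 without mouse 2 and 0.159 without mouse 3 (p = 0.8, 0.171 and 0.743, exact permutation test).

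**Figure D3:**
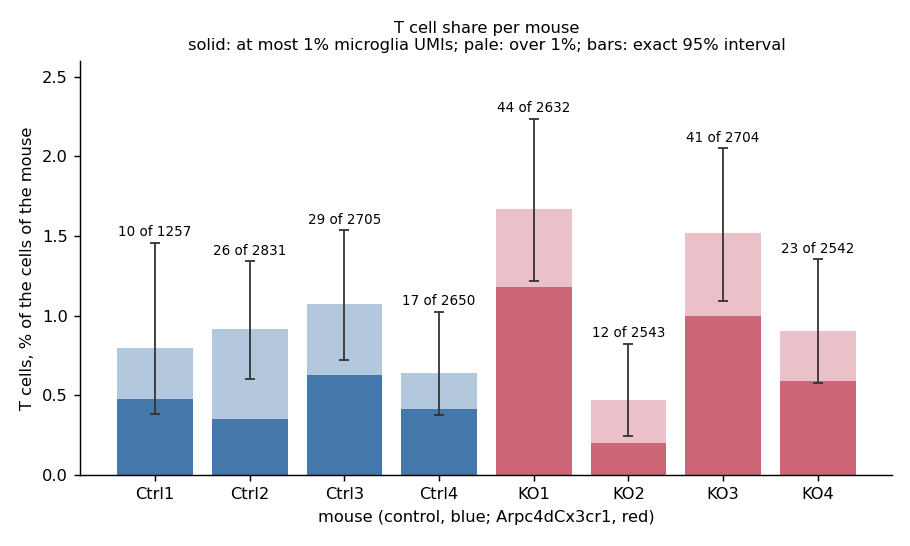
T cells as a percentage of the cells of each mouse (Ctrl1 to Ctrl4 control, KO1 to KO4 Arpc4dCx3cr1), with the solid part for T cells with at most 1% and the pale part for those over 1% microglia UMIs; bars are exact 95% binomial intervals for counting error only. The Arpc4dCx3cr1 mice span 0.472 to 1.67% and enclose the control mice at 0.642 to 1.07%.

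Coreceptor groups overlapped between genotypes, and the share of Trdc cells, which did not overlap, missed the threshold after a correction that it could not pass alone. The CD8 share of T cells was 80% in control mouse 1 (8 of 10 cells) and 27.6 to 35.3% in the other control mice, and 47.7 to 58.3% in Arpc4dCx3cr1 mice (p = 0.6, exact permutation test, n = 4). The difference of 8.60 percentage points was 20.5 without control mouse 1 (adjusted p = 0.0952, exact permutation test) and -0.708 without T cells over 1% microglia UMIs. Without control mouse 1 the CD8 shares did not overlap, but with 1 mouse left out this test cannot give a p under 0.05. Trdc cells numbered 1, 3, 4 and 5 in control mice and 4, 0, 2 and 1 in Arpc4dCx3cr1 mice. Their share was 10 to 29.4% in control mice (mean 16.2% ± 8.95, SD) and 0 to 9.09% in Arpc4dCx3cr1 mice (4.58% ± 3.72), so that every control mouse lay above every Arpc4dCx3cr1 mouse. The exact permutation p was 0.0286, the smallest that 4 mice against 4 can give, and 0.143 after adjustment over the 5 groups. With only 1 of the 5 groups at this smallest p, the adjusted p cannot fall under 0.05, so the miss does not show that the genotypes were alike. With T cells over 1% microglia UMIs left out the difference was -17.3 percentage points, and with each cell thinned to 1000 UMIs it was -4.07 (adjusted p = 0.714 and 0.905, exact permutation test). Tcrg-C1, a gamma constant gene, had a log2 fold change of -0.69 (SE 0.558) and Trdc one of -1.02 (SE 0.45) over the summed T cells, neither past the threshold (edgeR adjusted p = 0.783 and 0.370).

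**Figure D4:**
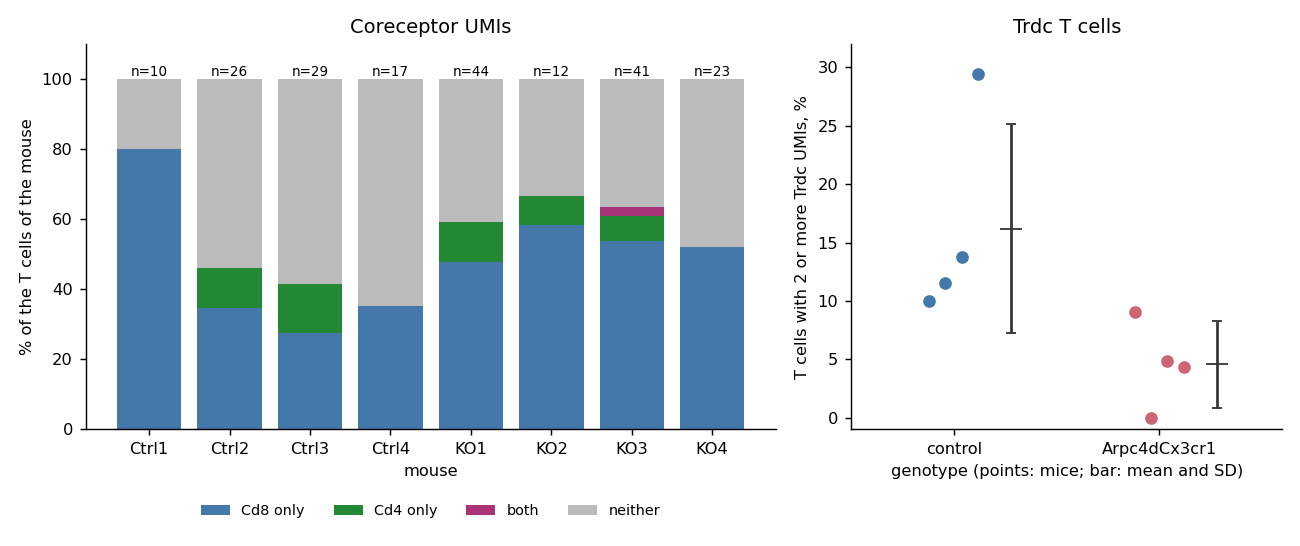
Left, the percentage of the T cells of each mouse (n above the bar) with UMIs of Cd8a or Cd8b1 alone, Cd4 alone, both or neither. Right, the percentage with at least 2 Trdc UMIs per mouse with the mean and SD by genotype, 10 to 29.4% in control and 0 to 9.09% in Arpc4dCx3cr1 mice.

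Arpc4 itself could not be used to tell whether T cells had lost the gene. It lies on chromosome 6 (113378115 to 113390448), overlaps Ttll3 on the same strand, and its counts come from the 3′ end. The other cells held Arpc4 at 233, 218, 226 and 229 CPM in control and at 160, 147, 139 and 134 CPM in Arpc4dCx3cr1 mice (log2 fold change -0.53, SE 0.0677, edgeR adjusted p = 2.13e-04), without overlap. In T cells it stood at 161, 189, 234 and 211 CPM in control and at 128, 153, 140 and 112 CPM in Arpc4dCx3cr1 mice, from 8 to 35 UMIs per mouse. These groups did not overlap either, but the fold change of -0.61 (SE 0.229) missed the threshold (edgeR adjusted p = 0.218). In T cells with at most 1% microglia UMIs it was -0.77 (SE 0.386, edgeR adjusted p = 0.782), from a fit in which Arpc4 was kept although it failed the filter on low counts. The difference between T cells and other cells in this change was 0.00 (SE 0.202).

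The genes that changed in the summed T cells mostly had higher levels in the other cells. Of 2669 genes tested with edgeR's quasi-likelihood test, 65 passed (2.44%), 28 higher (1.05%) and 37 lower (1.39%) in Arpc4dCx3cr1 mice. The 13 microglia markers summed to 13529 to 17698 CPM in the T cells of control mice and to 13150 to 19563 CPM in those of Arpc4dCx3cr1 mice, against 40294 CPM in the other cells. Of the 65 genes, 60 were called in the other cells in the same direction, where 5148 of 13238 genes (38.9%) were called, and 61 had a lower level in T cells with at most 1% microglia UMIs than in the other cells. The 2 comparisons share their mice, so this overlap is no independent result. In T cells with at most 1% microglia UMIs, where the markers summed to 1342 to 3623 CPM, 635 genes could be tested and none passed edgeR's threshold (0%), with 40 at an unadjusted p under 0.05. Of the 65, 52 failed the filter on low counts there and the 13 tested were not called.

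Among the falls, P2ry12, the microglial receptor for ADP, stood at 823, 949, 857 and 1361 CPM in the T cells of control mice and at 103, 348, 280 and 272 CPM in those of Arpc4dCx3cr1 mice (log2 fold change -2.05, SE 0.257). In T cells with at most 1% microglia UMIs it was at 0 to 145 CPM in any mouse. The largest fall was that of Csmd3 (-4.72, SE 0.379), a large membrane protein, followed by the unnamed genes Gm10790 and Gm46367 and by Crybb1, a crystallin known from immature microglia. Nav2, P2ry13, Pde4d, Rgs2 and Cmtm6 completed the 10 largest falls, between -1.90 and -2.38. All 10 also fell in the other cells.

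Among the rises, Apoe, the lipid carrier of reactive microglia, stood at 462 to 1587 CPM in the T cells of control mice and at 3601 to 10669 CPM in those of Arpc4dCx3cr1 mice (log2 fold change 2.86, SE 0.332), and at 433 to 891 and 603 to 1465 CPM in T cells with at most 1% microglia UMIs. Axl, a receptor for dying cells, rose by 3.78 (SE 0.605), Cxcl16, the ligand of CXCR6, by 2.63 (SE 0.469), the factor Trps1 by 2.59, and Ccl12, a chemokine with a close paralog in Ccl2, by 2.49 on the log2 scale. Cd83, Fmnl2, Rassf3, Cybb and Ank made up the 10 largest rises, between 2.01 and 2.47. All 10 also rose in the other cells. Of the 13 microglia markers, 1 rose and 4 fell in the summed T cells (median -0.62, against -0.01 over all genes tested).

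The 4 called genes with a higher level in T cells than in the other cells were Cd226, Anxa2, Actb and Tcrg-C2, and they were singled out after their values were seen. Cd226, an activating receptor of CD8 and NK cells, stood at 221, 274, 295 and 348 CPM in control and at 123, 83.4, 176 and 161 CPM in Arpc4dCx3cr1 mice (log2 fold change -1.0, SE 0.242, edgeR adjusted p = 0.0223), without overlap. In T cells with at most 1% microglia UMIs the change was -0.67 (SE 0.345, edgeR adjusted p = 0.774) and the groups overlapped. Anxa2, a protein that binds membranes and actin, stood at 105 to 161 CPM in control and at 27.8 to 73.8 CPM in Arpc4dCx3cr1 mice (-1.24, SE 0.312, edgeR adjusted p = 0.0323). In T cells with at most 1% microglia UMIs it stood at 216 to 347 and at 58.4 to 108 CPM, still without overlap, from 1 to 20 UMIs per mouse (-1.59, SE 0.330, edgeR adjusted p = 0.0929). Tcrg-C2, a gamma constant gene with close copies, rose from 33.5 to 80.3 CPM to 90.8 to 153 CPM (1.38, SE 0.350, edgeR adjusted p = 0.0345) on 4 to 29 UMIs per mouse, while in T cells with at most 1% microglia UMIs it was at 0 CPM in 1 mouse of each genotype.

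Actb, cytoplasmic actin, fell in T cells and in the other cells. It stood at 5741, 4044, 4876 and 4514 CPM in the T cells of control mice and at 3248, 3337, 3198 and 3359 CPM in those of Arpc4dCx3cr1 mice (log2 fold change -0.53, SE 0.138, edgeR adjusted p = 0.0434). Every Arpc4dCx3cr1 mouse lay below every control mouse, also in T cells with at most 1% microglia UMIs, at 4638 to 8227 against 2976 to 3612 CPM (-0.75, SE 0.136, edgeR adjusted p = 0.0693, the lowest of that fit). Actb was at 4978 CPM in empty droplets, and the part of free RNA in its fall was not tested. Of the 13 actin regulators, Actb alone was called (median -0.10), and Pfn1, which feeds actin monomers to growing filaments, missed the threshold at -0.46 (SE 0.138, edgeR adjusted p = 0.0928). Of the 9 Arp2/3 subunit genes none passed in T cells (median -0.15), while Arpc4 and Arpc5l fell and Actr3 rose in the other cells. The calls of Cd226, Anxa2, Actb and Tcrg-C2 in T cells were each lost in at least 1 fit without a mouse, with the highest edgeR adjusted p at 0.0883 for Cd226 and 0.148 for Actb without Arpc4dCx3cr1 mouse 1, at 0.124 for Anxa2 without control mouse 3 and at 0.180 for Tcrg-C2 without control mouse 2.

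Genes of T cell identity and function were mostly not called between genotypes, which does not show that they were alike. Of the receptor and CD3 genes 1 of the 9 tested was called (Tcrg-C2, median over the list -0.15), of the 11 signaling genes tested none (median 0.00), and of the 2 coreceptor genes tested none (median 0.47). Of the 11 cytotoxic genes tested Cst7 alone rose (1.41, SE 0.320), a protease inhibitor that reactive microglia share and that was at 85.1 to 167 CPM in control and 167 to 468 CPM in Arpc4dCx3cr1 mice. It was at 114 to 329 and 114 to 231 CPM in T cells with at most 1% microglia UMIs. Ccl5 had a fold change of 0.00 (SE 0.247) and Cxcr6 of -0.34 (SE 0.208). Of the 7 tissue residence genes tested Rgs2 fell, which was higher in the other cells. None of the cytokine receptors, inhibitory receptors and genes of naive or recirculating cells tested was called (8, 4 and 4 genes).

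The comparison between the genotype effects in T cells and in the other cells asked which genes changed unlike in them. Of 11769 genes, 47 (0.399%) had an effect in T cells that differed from that in the other cells, with 17 positive (0.144%) and 30 negative (0.255%) differences. With scaling by relative log expression the counts were 17 and 68. As both sums of a mouse come from the same animal, the mouse was also entered as a block, which gave 198 genes (1.68%), 29 positive (0.246%) and 169 negative (1.44%), including 45 of the 47. Without T cells over 1% microglia UMIs, 20 genes passed (0.175%), 8 positive (0.0701%) and 12 negative (0.105%). All 47 kept their sign there and 18 of them passed. With the mouse as a block and without those cells, 73 passed (0.64%), 14 positive (0.123%) and 59 negative (0.517%). Of the 47 genes, 46 were called between genotypes in the other cells. In T cells 10 of the 47 could not be tested and 1 was called, B2m.

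Most interferon response genes rose in the other cells. Of the 18 listed genes with counts, 17 rose in the other cells, where 19.8% of all genes tested rose and 19.1% fell (median 2.24, against 0.00 over all genes). In T cells 12 could be tested and Bst2, a tether of viruses, rose (0.86, SE 0.230, edgeR adjusted p = 0.0472), with a median of 0.18 over the list. In T cells with at most 1% microglia UMIs 6 could be tested, none was called and the median was 0.25. The difference between the effects was negative and past the threshold for 4 of 18 genes, among them Ifi27l2a, Ifit3 and Rtp4 (median -1.58, against 0.05 over all genes), for 10 with the mouse as a block, and for none without T cells over 1% microglia UMIs (median -1.32, against 0.20). With that block and without those cells, Ifi27l2a and Isg15 passed.

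Ifi27l2a, a small interferon-inducible protein, stood at 1204, 480, 1105 and 939 CPM in the T cells of control mice and at 1186, 1390, 1171 and 1369 CPM in those of Arpc4dCx3cr1 mice, with overlap. In the other cells it stood at 93.2 to 176 and at 545 to 755 CPM, with a difference of -1.91 (SE 0.308, edgeR adjusted p = 0.00349). Without T cells over 1% microglia UMIs it was -1.47 (edgeR adjusted p = 0.311), and with the mouse as a block there it was -1.54 (edgeR adjusted p = 2.57e-04). The T cells of control mice 1, 3 and 4 lay above the other cells of every Arpc4dCx3cr1 mouse, and those of control mouse 2 lay below them. Ifi206 and Ifi208, of the interferon-inducible DNA sensor family with close copies, had differences of -3.08 and -3.56, and both missed the threshold without T cells over 1% microglia UMIs (edgeR adjusted p = 0.0965 and 0.0617) and passed with the mouse as a block there (edgeR adjusted p = 3.84e-05 and 8.41e-04).

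Genes of MHC class I were among those with negative differences, singled out after their values were seen. Of the 22 ligand and antigen presentation genes tested in this contrast, B2m, H2-D1 and H2-K1 passed, also without T cells over 1% microglia UMIs, while the peptide transporter gene Tap1 had a difference of -1.16 (SE 0.330, edgeR adjusted p = 0.157). H2-D1 (chromosome 17, 35262730 to 35267499) stood at 1606, 1636, 2016 and 1793 CPM in the T cells of control mice and at 1762, 2739, 2540 and 2256 CPM in those of Arpc4dCx3cr1 mice (log2 fold change 0.40, SE 0.153, edgeR adjusted p = 0.245). In the other cells it rose from 535 to 640 CPM to 1745 to 2205 CPM (1.87, SE 0.0891). The difference of -1.38 (SE 0.197, edgeR adjusted p = 0.00110) was -1.73 without T cells over 1% microglia UMIs, in which H2-D1 changed by 0.02 (SE 0.180) between genotypes. H2-K1 differed by -1.41 and H2-Q7, a nonclassical relative, by -2.96, though reads of these similar genes can be misplaced. Nlrc5, the activator of the MHC class I genes, had a difference of -2.61 (SE 0.383) and rose by 2.81 in the other cells. B2m, the shared light chain, rose in the other cells from 1125 to 1255 CPM to 2534 to 3397 CPM. In T cells it rose less, from 1581 to 2063 CPM to 2392 to 3031 CPM (0.53, SE 0.141, edgeR adjusted p = 0.0462), and in those with at most 1% microglia UMIs it stood at 1714 to 2381 and at 1984 to 2626 CPM (0.09, SE 0.134). H2-D1 stood at 1763 ± 188 CPM in T cells and 598 ± 46.3 CPM in the other cells of control mice, and at 2324 ± 424 and 2022 ± 196 CPM in Arpc4dCx3cr1 mice (SD, n = 4). Empty droplets of the pool held 1865 CPM of H2-D1 and 2618 CPM of B2m, and their part in the T cell values was not tested.

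**Figure D5:**
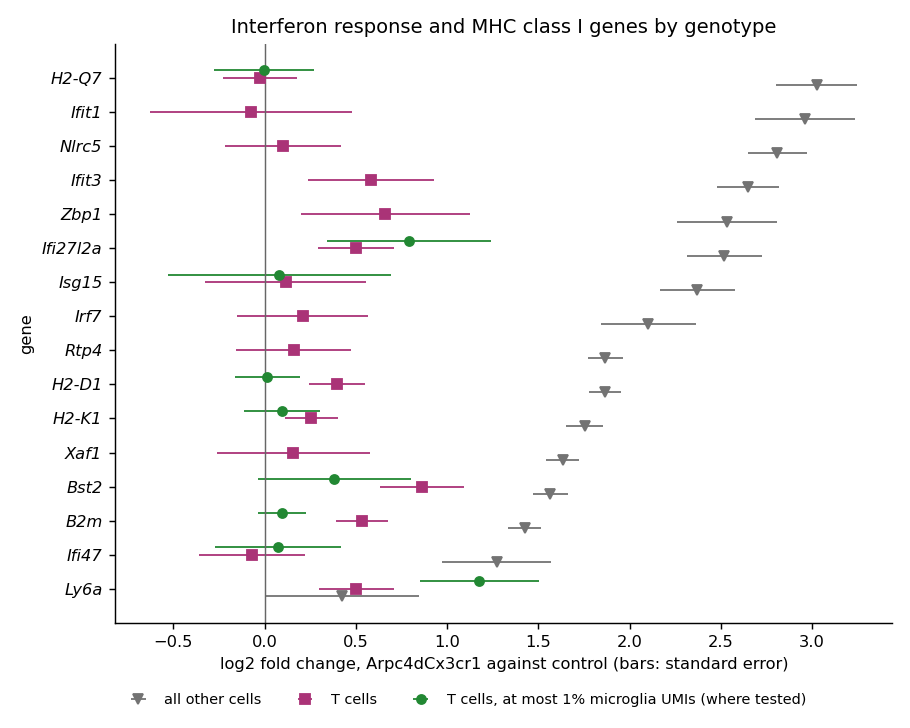
Log2 fold changes between Arpc4dCx3cr1 and control mice (x axis, bars are standard errors) for interferon response and MHC class I genes in all other cells, in T cells and, where tested, in T cells with at most 1% microglia UMIs. In the other cells the genes lie between 0.43 (Ly6a) and 3.02 (H2-Q7), while in T cells H2-Q7 lies at -0.03 and Bst2, at 0.86, is the highest.

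Some further genes with unlike effects are known from lymphocytes, and these were picked among the 47. Cd52, a small surface protein of lymphocytes, stood at 2603 to 3874 and 2515 to 3434 CPM in T cells and rose from 390 to 542 CPM to 1387 to 1700 CPM in the other cells, with a difference of -1.65 (SE 0.199, edgeR adjusted p = 1.64e-04). Il2rg, the chain shared by receptors for IL-2, IL-7 and IL-15, differed by -2.20 (SE 0.281) and rose in the other cells from 7.37 to 10.6 CPM to 35.8 to 44.3 CPM. Cd69 differed by -3.92 and the residence factor Runx3 by -2.25, on 2 to 16 Cd69 UMIs per mouse in T cells. Without T cells over 1% microglia UMIs both missed the threshold (edgeR adjusted p = 0.0518 for Cd69 and 0.153 for Runx3), and with the mouse as a block there both passed (edgeR adjusted p = 2.33e-04 and 0.0164). Each also missed it in at least 1 fit without a mouse. In the opposite direction, Gimap1 and Gimap6, GTPases that support lymphocyte survival, stood at 217 to 270 and 147 to 368 CPM in T cells of any mouse. Gimap1 fell in the other cells from 33.9 to 36.2 CPM to 3.1 to 4.58 CPM and Gimap6 from 25.6 to 28.5 CPM to 2.06 to 5.98 CPM. Their differences were 3.20 (SE 0.205) and 2.54 (SE 0.367), and both passed without T cells over 1% microglia UMIs.

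Ligands that T cells could meet were mostly higher in the other cells of Arpc4dCx3cr1 mice. Of 22 ligand and antigen presentation genes tested, 15 rose there and none fell, where 19.8% of all genes rose and 19.1% fell (median 1.40, against 0.00 over all genes). Cxcl16 (chromosome 11, 70453983 to 70459984) stood at 62.9, 53.7, 66.7 and 62.4 CPM in the other cells of control mice and at 311, 289, 277 and 349 CPM in those of Arpc4dCx3cr1 mice (log2 fold change 2.43, SE 0.0964), without overlap. Its receptor gene Cxcr6 changed by -0.34 (SE 0.208, edgeR adjusted p = 0.644) in T cells and by -0.48 (SE 0.230, edgeR adjusted p = 0.774) in those with at most 1% microglia UMIs. Cxcl16 in the summed T cells was at 0 to 46.9 CPM in control and 104 to 209 CPM in Arpc4dCx3cr1 mice, and at 0 to 58.4 CPM in those with at most 1% microglia UMIs. The adhesion ligands Icam1 and Vcam1, the chemokines Cxcl10, Ccl3 and Ccl4 and the costimulatory ligands Cd86 and Cd274 were among those that rose in the other cells.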

How the data were processed

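Per the labels and file headers, the authors made 10x Genomics 3′ libraries (v3.1) of CD45+ brain cells tagged per mouse, aligned them to mm10 with Cell Ranger (7.1.0 per the file headers, 6.1.2 in the submitters' processing notes) and deposited raw UMI counts, as a table for each mouse and another of all barcodes in the pool. The counts were not corrected for free RNA, and tag counts were kept out of every total. The 32285 genes were named by the tables and placed with GENCODE vM21 (GRCm38).

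UMIs of the T cells and of the other cells were summed per mouse. CPM were scaled by the total of the sum alone, and counts of 3′ ends were not divided by transcript length, so levels of different genes are not compared. Sums were compared between genotypes with edgeR 4.0.16 (limma 3.58.1, R 4.3.3; TMM, filterByExpr, the quasi-likelihood test, and a threshold of 0.05 on p after Benjamini-Hochberg adjustment over all genes tested), and the 2 genotype effects with 1 contrast over 16 sums. Fold changes are on the log2 scale. Shares were compared with exact permutation tests over mice, two-sided (scipy 1.17.1, Python 3.11.15, numpy 2.4.6, pandas 2.3.3). The mouse is the replicate, and cells are not. The fits were tested on simulated data. Doublets were not called, and results are given with and without T cells over 1% microglia UMIs.

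The alternatives were DESeq2 1.42.0, relative log expression scaling, no filter on low counts, other limits on the T cells, a block, and each mouse left out in turn. The fits of the contrast without T cells over 1% microglia UMIs were chosen after seeing the data. Correlations of the deviations of same-numbered mice were 0.03, 0.05, -0.03 and -0.01 in T cells and 0.16, 0.06, -0.13 and 0.11 in the other cells. With 10 to 44 T cells per mouse, these values cannot settle whether the numbers pair the genotypes.

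Members and the 28 gene lists were chosen with earlier results of these data known. The text names the Arp2/3 subunits, the 10 largest rises and falls between genotypes in T cells, the list members called or highest in T cells, the 15 genes with the highest ratio to the other cells, the 5 largest differences each way between the effects, and ligands of T cell receptors. Other genes, and those named by subset, were chosen after their values were seen. Mx1 of the interferon list was not analysed here, and some named genes are not reported here. The study left 1 female Arpc4dCx3cr1 mouse out of its own analysis. The labels do not say which mouse was female, so all 8 mice were used, and each was left out in turn. Xist was high in Arpc4dCx3cr1 mouse 1 alone (1287 CPM in the other cells). Results without that mouse are therefore those without the mouse of high Xist, while the main fits include it. Bulk sequencing and imaging were not analysed here.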

Additional observations from a re-analysis of the deposited data

Results flagged for a closer look

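The genotype effect in T cells differed from that in the other cells for 47 genes. The 5 most negative differences were those of Btbd11 (-4.10), Cd69 (-3.92), Ifi208 (-3.56), Ifi206 (-3.08) and Ptger4 (-3.03), all of which rose in the other cells. The 5 most positive were those of Ilvbl (10.13), Zfp553 (9.89), Gimap1 (3.20), Pecam1 (2.61) and Gimap6 (2.54). Ilvbl and Zfp553 had no UMI in the T cells of any control mouse and 1 to 5 and 1 to 4 UMIs per Arpc4dCx3cr1 mouse, so their fitted differences depend on the prior count and are no measure of size. Pecam1 had 0 to 8 UMIs per mouse in T cells. In the pool, 195 T cell barcodes carried no assignment to a mouse.

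Single mice lay far from the rest of their group in 9 of 146 groups of 4 mice tested, of which chance flags about 1 in 20. In T cells these were the CD8 share of control mouse 1 (80% against 27.6 to 35.3%), Trbc2 in control mouse 1 (1646 CPM against 964 to 1013), Fmnl2 in control mouse 4 (63.3 CPM against 20.1 to 24.3), Axl in Arpc4dCx3cr1 mouse 2 (278 CPM against 90.8 to 114), Cmtm6 in the same mouse (97.3 CPM against 34.4 to 36.3), Cd69 in Arpc4dCx3cr1 mouse 1 (78.7 CPM against 27.8 to 31.1) and Zfp553 in Arpc4dCx3cr1 mouse 4 (27.9 CPM against 13.9 to 15.6). In the other cells these were H2-K1 in control mouse 2 (366 CPM against 432 to 440) and Xist in Arpc4dCx3cr1 mouse 1 (1287 CPM against 6.78 to 13).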

How the results depend on the processing

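The difference in T cell share kept its direction and its side of the threshold under every alternative run, but for most of them the side was fixed in advance. With 1 mouse left out, the exact permutation test cannot give a p under 0.05. The limit of 1000 gene UMIs kept the same 202 T cells, and all deposited cells as the denominator gave the same difference. The 65 genes called in T cells became 0 without T cells over 1% microglia UMIs, where 635 genes were tested, 23 without T cells over 10000 UMIs and 163 without the filter on low counts. Of the 65, only 33 were called in every fit with 1 mouse left out, and 52 were called without Arpc4dCx3cr1 mouse 1. With the replicate block by mouse number the 65 became 68, and the 5148 genes of the other cells became 4980. The 47 genes of the contrast became 85 with relative log expression scaling, 209 with DESeq2, 102 without the filter, 198 with the mouse as a replicate block, 20 without T cells over 1% microglia UMIs and 73 with both of the last, and between 21 (without control mouse 4) and 62 (without Arpc4dCx3cr1 mouse 1) with 1 mouse left out, with 25 without control mouse 2, and 24 without control mouse 3 or Arpc4dCx3cr1 mouse 4. The cause of these shifts was not tested, other than that fewer cells leave fewer genes to test.

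Some differences between genotypes with no call changed sign. The difference in CD8 share became -0.708 percentage points and that in the share with neither coreceptor 0.0264 without T cells over 1% microglia UMIs, while with 1 mouse left out they ran from 3.00 to 20.5 and from -19.4 to -4.49, both farthest from 0 without control mouse 1. The CD4 difference became -0.244 without T cells over 1% microglia UMIs, -0.304 without T cells over 10000 UMIs and -0.602 with 2 UMIs to mark a coreceptor. With 1 mouse left out, the difference ran from -1.69 to 2.91 points for CD4, from -492 to 238 for the median UMIs per T cell and from -175 to 137 for the median genes, and the difference in the share of T cells over 1% microglia UMIs ran from -11.7 (without Arpc4dCx3cr1 mouse 2) to 0.311 points (without control mouse 2). Of 561 values of single genes and of that share under alternatives, 470 kept direction and side of the threshold, 90 kept direction without passing and 1, that share without control mouse 2, was reversed. The 561 values are not distinct tests. Of the 470, 32 came from the limit of 1000 gene UMIs, which kept the same 202 T cells and could not differ. The fits with 1 mouse left out entered as 2 values per gene and comparison, the lowest and the highest, under 1 shared label. In each of these 2 sets 45 kept their side and 24 did not. Genes that could not be tested under an alternative are not among the 561. Without T cells over 1% microglia UMIs (no block), 10 gene values kept their side of the threshold and 19 no longer passed. Fewer cells and UMIs left 635 genes to test in T cells with at most 1% microglia UMIs. The CD8 and CD4 comparison and its alternatives were not run, as 1 mouse alone held 5 CD4 cells.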
